A study of Mus musculus with 6 samples.

Results

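Neutrophil genes were followed in RNA-seq of CD31 bead fractions from Lewis lung carcinoma (LLC) tumors, in 10 rows out of 23473 RefSeq gene rows. The 10 genes were S100a8, S100a9, Mmp8, Mmp9, Lcn2, Csf3r, Cxcr2, Il1r2, Retnlg and G0s2, taken by matching the gene symbol of the table. They were chosen on the measured RPKM of these same libraries, Ctrl against NICeCA, so their differences between the groups are given as a description with no test. RPKM is the number of reads of a gene divided by its length and by the size of the library, so levels of different genes can be set side by side.

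The 6 libraries came from tumors grown in C57BL/6 mice whose labelled age was 8 weeks. The 3 Ctrl mice are labelled wild type. The 3 NICeCA mice carried a Cdh5 promoter-driven, tamoxifen-inducible Cre and a floxed-stop Notch1 intracellular domain at Rosa26, so that Notch signaling was switched on in cells that use the Cdh5 promoter. No source used here says whether the Ctrl mice carried Cre or received tamoxifen. The LLC cells lacked the transgene, and other host cells held it behind the stop cassette unless they had used Cre. Digested tumors were depleted of red cells by lysis and captured on CD31-coated beads, and the labels call the captured cells tumor endothelial cells and say that tumors were taken on different days. The study's methods give the same day after inoculation for the tumors of this RNA-seq. CD31 is also carried by platelets, neutrophils, monocytes and some other leukocytes.

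Neutrophils are short-lived phagocytes made in the bone marrow under granulocyte colony-stimulating factor and called into tissue by CXC chemokines that bind CXCR2. They store antimicrobial proteins and proteases in azurophil, specific and gelatinase granules that are filled one after another during maturation in the marrow, so mature cells hold the proteins after the mRNA of the early granules has gone. In tumors they are known for releasing S100A8/S100A9, proteases that cut matrix, and regulators of interleukin-1 signaling.

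Each library held between 35303191 and 39823498 reads over all rows of the table, which put between 27 and 13487 reads on a single member in a library. All 10 members passed the filter of a mean of at least 1 RPKM. The transgene was checked through Notch1 and 3 Notch target genes. Notch1 itself lay between 8.19 and 14.3 RPKM in Ctrl and between 12.3 and 13.6 RPKM in NICeCA, and the row does not tell the transgene from the resident gene. Nrarp ranged from 6.34 to 16.5 RPKM in Ctrl and from 19.3 to 21 RPKM in NICeCA (limma adjusted p = 0.052). Hey1 was 2.69 to 5.55 RPKM in Ctrl and 6.05 to 10.6 RPKM in NICeCA and passed the test (adjusted p = 0.041), while Hes1 did not (adjusted p = 0.56). The 12 endothelial markers were detected in every library and summed to 227 to 585 RPKM in Ctrl and 499 to 649 RPKM in NICeCA. The RNA was not of endothelial cells alone by these lists. The 11 macrophage and monocyte markers summed to 7111 to 10050 RPKM in Ctrl and 5430 to 9286 RPKM in NICeCA. Lyz2, the lysozyme gene of macrophages and neutrophils, alone had 2611 to 5555 RPKM across the libraries. In bulk RNA, fewer cells of a type and less RNA per cell cannot be told apart.

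S100a8 and S100a9 encode the calcium-binding proteins that pair as calprotectin, an abundant cytosolic protein of neutrophils. S100a8 measured 29.7, 65.3 and 93.9 RPKM in Ctrl replicates 1, 2 and 3 and 196, 354 and 660 RPKM in NICeCA replicates 1, 2 and 3. Every NICeCA library lay above every Ctrl library, and the lowest NICeCA value was 2.09 times the highest Ctrl value. The group means were 62.9 ± 32.2 RPKM (SD, n = 3) and 403 ± 236 RPKM (SD, n = 3), a ratio of 6.41. S100a9 measured 34.4, 105 and 118 RPKM in Ctrl and 194, 307 and 742 RPKM in NICeCA. The groups again did not overlap, with means of 86 ± 45.1 and 414 ± 290 RPKM (SD, n = 3 each) and a ratio of 4.82. Both genes were lowest in replicate 1 and highest in replicate 3 of each group, and the spread inside a group was wide, with the highest library 3.16 to 3.83 times the lowest.

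The 2 genes lie 22598 bases apart on chromosome 3 (GRCm38, S100a8 at chr3:90669071-90670034 on the plus strand and S100a9 at chr3:90692633-90695691 on the minus strand). They were the most abundant pair in 5 of the 6 libraries, and together made up 43.4 to 73.6% of the summed RPKM of the 10 members in Ctrl and 53.4 to 74.5% in NICeCA. Their ratio was not the same in the groups. S100a9 divided by S100a8 was 1.16, 1.61 and 1.26 in Ctrl and 0.987, 0.869 and 1.13 in NICeCA, so that S100a9 led in each Ctrl library and in NICeCA replicate 3 alone.

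The 250 bases before the start of the member genes were read from RefSeq promoter windows of GRCm38.p6, which matched 9 of the 10 members by symbol (all but Mmp9). They were searched on both strands for the C/EBP letters TTGCNNAA and the ETS letters GAGGAAG, motifs of the families to which the granulocyte factors C/EBPε and PU.1 belong. The windows of S100a8 and S100a9, the most abundant pair, are shown 5′ to 3′ in the direction of the gene, with matches to either motif in capitals. The S100a8 window is chr3:90668821-90669070 (plus strand) and that of S100a9 is chr3:90695722-90695971 (minus strand).
S100a8: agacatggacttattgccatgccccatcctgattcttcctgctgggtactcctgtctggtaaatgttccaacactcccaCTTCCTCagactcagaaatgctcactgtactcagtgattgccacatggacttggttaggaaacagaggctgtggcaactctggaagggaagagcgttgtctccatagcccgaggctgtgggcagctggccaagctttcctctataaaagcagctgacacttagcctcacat
S100a9: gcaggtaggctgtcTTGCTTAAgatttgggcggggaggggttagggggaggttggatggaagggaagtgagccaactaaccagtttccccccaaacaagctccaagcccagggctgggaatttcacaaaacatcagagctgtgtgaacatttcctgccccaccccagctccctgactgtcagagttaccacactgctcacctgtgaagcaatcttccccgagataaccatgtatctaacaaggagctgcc
The S100a8 window held 1 ETS match, 171 to 165 bases before the start. The S100a9 window held 1 C/EBP match, 236 to 229 bases before the start that this window adjoins.

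Over all 9 windows, the C/EBP letters were found in 4 (Lcn2, S100a9, Mmp8 and Retnlg) and in 9.56% of 32851 promoter windows of the same length. The ETS letters were found in 4 (Lcn2, S100a8, Csf3r and Mmp8) and in 10.6% of all windows. The RBPJ letters TGGGAA, bound by the DNA-binding partner of the Notch intracellular domain, were found in Cxcr2 and S100a9 and in 21.6% of all windows. The AP-1 letters TGANTCA were in 0 of the 9 windows against 6.75% of all, and the STAT letters TTCNNNGAA in Il1r2 alone against 7.02%. The Il1r2 window lies before a start downstream of the one in the deposited row. The S100a9 window, from chr3:90695722, lies before a start upstream of the deposited one at chr3:90695691. No matches overlapped each other, and they describe the letters of the windows only.

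Mmp8 and Mmp9 encode neutrophil collagenase and gelatinase B, proteases kept in the specific and gelatinase granules. Mmp8 had the largest difference of the 10 genes. It measured 1.28, 2.31 and 4.16 RPKM in Ctrl and 38.8, 45.9 and 71.1 RPKM in NICeCA. The lowest NICeCA library was 9.33 times the highest Ctrl library, and the Ctrl values rested on 123 to 398 reads against 3473 to 6499 in NICeCA. The means were 2.59 ± 1.46 and 51.9 ± 17 RPKM (SD, n = 3 each), a ratio of 20.1. Mmp9 measured 3.9, 6.11 and 9.87 RPKM in Ctrl and 76.5, 35.6 and 83.6 RPKM in NICeCA. The groups did not overlap here either, with a ratio of means of 9.85, and NICeCA replicate 2 lay below the other NICeCA libraries. Mmp9 is also made by macrophages and other cells.

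The promoter windows of Mmp8, the member with the largest difference, and of Csf3r, the one with the smallest, are shown in the same way, at chr9:7558179-7558428 and chr4:126024409-126024658 (both plus strand).
Mmp8: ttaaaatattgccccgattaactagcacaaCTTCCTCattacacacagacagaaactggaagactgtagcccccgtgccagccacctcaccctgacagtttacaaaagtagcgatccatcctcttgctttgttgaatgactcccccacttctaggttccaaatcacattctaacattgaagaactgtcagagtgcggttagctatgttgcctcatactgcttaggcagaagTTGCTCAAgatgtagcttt
Csf3r: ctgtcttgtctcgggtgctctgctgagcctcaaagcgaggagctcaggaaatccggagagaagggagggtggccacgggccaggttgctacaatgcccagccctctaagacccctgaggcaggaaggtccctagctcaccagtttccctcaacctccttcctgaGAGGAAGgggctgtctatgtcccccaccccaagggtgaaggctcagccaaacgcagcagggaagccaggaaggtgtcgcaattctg
The Mmp8 window held 1 match of each motif, ETS 220 to 214 bases and C/EBP 19 to 12 bases before the start. The Csf3r window held 1 ETS match, 86 to 80 bases before the start.

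Lcn2, Retnlg and G0s2 encode a siderophore-binding protein of the specific granule, a resistin-like protein of neutrophils and an inhibitor of the lipase ATGL. Lcn2 was the lowest member in Ctrl replicate 1, with 0.811 RPKM from 27 reads, and had 2.86 and 5.17 RPKM in replicates 2 and 3. In NICeCA it measured 10.2, 16.9 and 35.7 RPKM. All NICeCA libraries were above all Ctrl libraries, with a ratio of means of 7.11 and the widest spread within Ctrl of any member, 6.38 times from lowest to highest. Retnlg measured 41.4, 16.1 and 32 RPKM in Ctrl and 112, 134 and 123 RPKM in NICeCA. It was the steadiest member in NICeCA, with a mean of 123 ± 11 RPKM (SD, n = 3) against 29.8 ± 12.7 RPKM in Ctrl, and the one member that was highest in Ctrl replicate 1. G0s2 measured 19.6, 17.8 and 29.5 RPKM in Ctrl and 53.5, 60.5 and 87.2 RPKM in NICeCA. Its groups did not overlap, with a ratio of means of 3.01.

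The 3 surface receptors among the members bind granulocyte colony-stimulating factor (Csf3r), CXC chemokines (Cxcr2) and interleukin-1 without signaling (Il1r2, the decoy receptor). Il1r2 measured 8.96, 7.77 and 14.1 RPKM in Ctrl and 37.3, 33.5 and 50.4 RPKM in NICeCA. These groups did not overlap, and the ratio of means was 3.93. Cxcr2 measured 1.3, 2.15 and 3.3 RPKM in Ctrl and 4.79, 6.48 and 11.1 RPKM in NICeCA. Its groups were also apart, with a ratio of means of 3.32 at the lowest level of any member in NICeCA. Csf3r measured 6.21, 5.89 and 10.2 RPKM in Ctrl and 7.18, 9.85 and 17 RPKM in NICeCA. It was the exception, because Ctrl replicate 3 exceeded NICeCA replicates 1 and 2, and the ratio of means was 1.52.

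**Figure D1:**
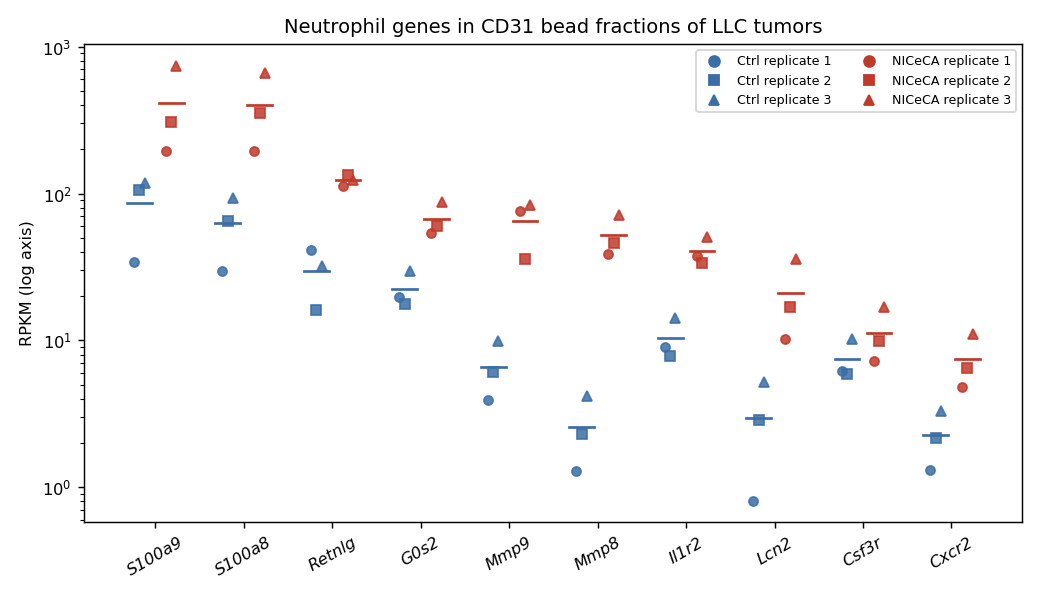
RPKM of the 10 neutrophil genes (log axis) in each library, blue for the 3 Ctrl and red for the 3 NICeCA libraries, with a marker shape for each replicate and a bar at the group mean. Groups are apart for 9 genes, from Mmp8 with a ratio of means of 20.1 to G0s2 with 3.01, and overlap for Csf3r.

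Ordered by the difference in mean log2(RPKM + 1), NICeCA minus Ctrl, the members were Mmp8 (3.92), Mmp9 (3.10), S100a8 (2.64), Lcn2 (2.47), S100a9 (2.21), Retnlg (2.10), Il1r2 (1.90), G0s2 (1.55), Cxcr2 (1.36) and Csf3r (0.51). With 1 library left out in turn, the ranges of S100a8, Lcn2, S100a9 and Retnlg overlapped (2.18 to 3.07, 2.00 to 2.88, 1.66 to 2.64 and 1.72 to 2.38). S100a8 stayed above Lcn2, and Lcn2 above S100a9, in each of these fits. Retnlg changed place, with 2.38 beside 2.18 for S100a8 without Ctrl replicate 1. Mmp9, with 2.82 to 3.48, fell below S100a8 without NICeCA replicate 1 (2.94 and 3.07). Il1r2, with 1.73 to 2.13, passed Retnlg without Ctrl replicate 2 (1.74 and 1.72). It also passed S100a9 without Ctrl replicate 1 (1.83 and 1.66) and without NICeCA replicate 3 (1.73 and 1.68). Without NICeCA replicate 3, Retnlg (2.09) lay above Lcn2 (2.01) and S100a9 (1.68). Mmp8 stayed above all other members with a range of 3.63 to 4.22, and Csf3r stayed below the other members with 0.19 to 0.76. The median of the 10 differences was 2.15 beside -0.05 over all 12320 genes tested. In the limma fit across all genes, 9 of the 10 members passed an adjusted p of 0.05 in the higher direction, where 5.88% of all tested genes did, and 9 had all NICeCA libraries above all Ctrl libraries, as did 16.5% of tested genes. Since the members were chosen on this contrast, nothing is read from these counts.

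The order of levels differed between the groups at 3 genes. Among the 10 members ranked by RPKM, Mmp8 was at place 9 in each Ctrl library and at place 6, 5 and 6 in NICeCA replicates 1, 2 and 3. Csf3r was at place 6, 7 and 6 in Ctrl and at place 9 in each NICeCA library. Il1r2 was at place 5 in each Ctrl library and at place 7 in each NICeCA library. S100a8 and S100a9 led in NICeCA, and Retnlg was at place 3 there.

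Ratios within a library do not depend on the library total, so the members were also divided by Csf3r, the receptor that differed least. Mmp8 divided by Csf3r was 0.207, 0.392 and 0.407 in Ctrl and 5.41, 4.66 and 4.19 in NICeCA. That is 0.335 ± 0.112 against 4.75 ± 0.615 (SD, n = 3 each), with no overlap. Cxcr2 divided by Csf3r was 0.209, 0.364 and 0.323 in Ctrl and 0.667, 0.658 and 0.654 in NICeCA, where the SD was 0.00713. This ratio was nearly the same in the 3 NICeCA libraries, among which Csf3r ranged from 7.18 to 17 RPKM and Cxcr2 from 4.79 to 11.1 RPKM. For all 9 members divided by Csf3r, every NICeCA library was above every Ctrl library. Since Csf3r was picked as the member that differed least, ratios to it had to be higher in NICeCA on average. Nothing is read from this count.

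**Figure D2:**
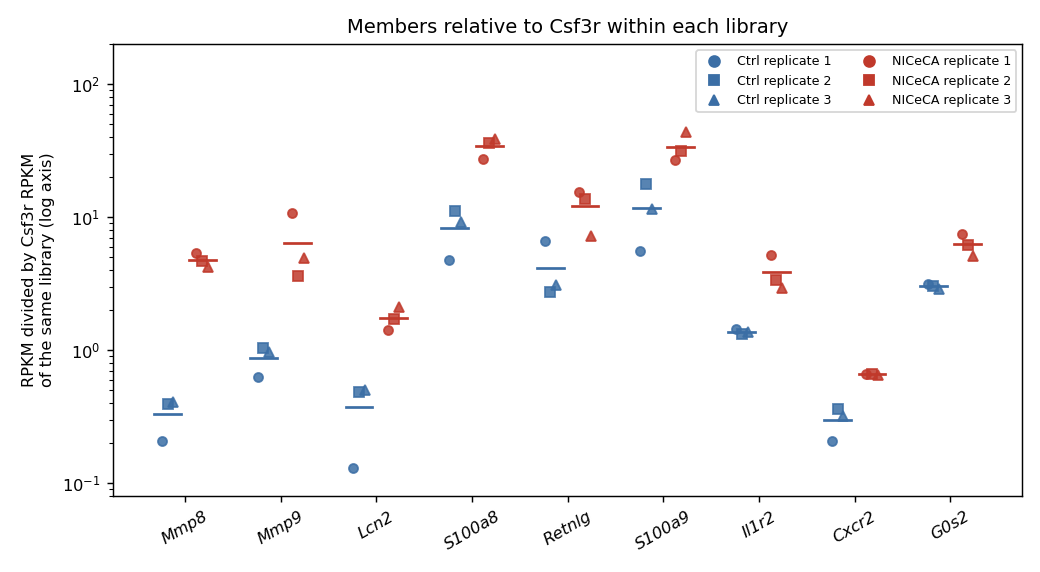
RPKM of 9 members divided by the RPKM of Csf3r in the same library (log axis), blue for Ctrl and red for NICeCA, with replicate shapes and bars at group means. All 9 ratios are apart between the groups, from Mmp8 with 0.335 and 4.75 as means to G0s2 with 3.02 and 6.25. Csf3r was picked as the member that differed least, so higher mean ratios in NICeCA follow from that choice.

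The choice of the divisor mattered. Divided by Cxcr2, 4 members were higher in all NICeCA libraries (S100a8, Mmp8, Mmp9 and Lcn2), Csf3r was lower in all, and the other 4 overlapped. Divided by S100a8, Mmp8 alone was higher in all NICeCA libraries, with 0.0354 to 0.0443 in Ctrl and 0.108 to 0.198 in NICeCA. With that divisor S100a9, Csf3r, Cxcr2 and G0s2 were lower in all NICeCA libraries, and the other 4 members overlapped. Lcn2 divided by S100a8 was 0.0421 ± 0.014 in Ctrl and 0.0513 ± 0.00331 in NICeCA (SD, n = 3 each), and the groups overlapped. Divided by Ptprc, which encodes the leukocyte surface protein CD45, 8 members were higher in all NICeCA libraries, and S100a9 and Csf3r overlapped. Mmp8 was higher in all NICeCA libraries under each of these divisors. As the member with the largest difference, it had to be higher on average against each of them, so this is no check of its rise.

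Libraries of a group also differed from each other in a shared way. NICeCA replicate 3 held the highest value of 9 of the 10 members (all but Retnlg), and NICeCA replicate 1 the lowest of 8. In Ctrl, replicate 3 was the highest for 9 members, and the lowest value fell in replicate 1 for 6 members and in replicate 2 for 4. The summed RPKM of the members was 148, 232 and 320 in Ctrl and 730, 1003 and 1881 in NICeCA. As a share of the reads on RefSeq rows this was 0.0167 to 0.0329% in Ctrl and 0.0913 to 0.179% in NICeCA. NICeCA replicate 3, with the highest sum of the members, had the lowest macrophage marker sum of the 6 libraries, 5430 RPKM. Ctrl replicate 1, with the lowest sum of the members, had the highest, 10050 RPKM. The libraries in between did not follow this order. Ctrl replicates 2 and 3 had macrophage sums of 7135 and 7111 RPKM, below the 9286 and 8459 RPKM of NICeCA replicates 1 and 2.

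Other genes of neutrophils were taken from 6 lists of 43 genes in all, the companion genes. The lists were drawn up with earlier results of these data known, so counts of calls in them are no independent support. Ly6g had no row by that name and was not analysed here, and 35 of the other 42 passed the filter. Of these 35, 17 rose and 0 fell in NICeCA at an adjusted p under 0.05, where 5.88% of all tested genes rose and 7.68% fell. Their median difference in log2(RPKM + 1) was 0.77, lower than the 2.15 of the members and above the -0.05 of all tested genes. The count depended on single libraries: it was 8 without Ctrl replicate 1, 4 without Ctrl replicate 2, 2 without NICeCA replicate 1 and 0 without NICeCA replicate 2. In that last fit 26 genes in all were called higher. Of the 35 companion genes, 22 had an unadjusted p under 0.05 there and 31 had a positive difference. The shares of all tested genes with such values were not counted, so nothing is read from these counts. The number of companion genes called higher was 18 without Ctrl replicate 3 and 12 without NICeCA replicate 3. It was 17 when limma voom was run on the reads recovered from the RPKM values. Some companion genes passed the filter through NICeCA alone, as Ngp and Cd177 did with Ctrl means of 0.424 and 0.989 RPKM.

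The genes of the azurophil granule, which is filled first, were at low levels in both groups. Mpo, Elane and Prtn3, the myeloperoxidase and 2 serine proteases, did not exceed 1.64 RPKM in any library and were not tested. Mpo lay between 0 and 0.151 RPKM in Ctrl and between 0.348 and 0.818 RPKM in NICeCA. Ctsg, the cathepsin G gene, had 0.226 to 1.66 RPKM in Ctrl and 1.42 to 3.64 RPKM in NICeCA (adjusted p = 0.072). Where 9 of the 10 members had their highest value in NICeCA replicate 3, this library held the lowest of the 3 NICeCA values of each of these 4 genes.

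In the specific granule list, 3 of the 5 tested genes passed in the higher direction, among them Ngp and Cd177, which the filter let in through their NICeCA values, so the count is no measure of the list. Hp, the haptoglobin gene, rose from 13.1 ± 5.45 to 35.1 ± 8 RPKM (log2 difference 1.40, SE 0.28, adjusted p = 0.029). Ngp, a cathelicidin-related granule protein, and Cd177, a neutrophil surface glycoprotein, rose at low levels, to 2.11 ± 0.488 and 2.78 ± 0.938 RPKM. Chil3, the chitinase-like protein Ym1 that macrophages also make, overlapped between the groups with 10.7 to 79.5 RPKM in Ctrl and 64.4 to 128 RPKM in NICeCA (adjusted p = 0.11). Pglyrp1, a peptidoglycan recognition protein, had an adjusted p of 0.1. Ltf and Camp, the lactoferrin and cathelicidin genes that neutrophil precursors use strongly, did not exceed 1.12 RPKM and were not tested. Ltf lay between 0.056 and 0.393 RPKM in Ctrl and between 0.775 and 1.12 RPKM in NICeCA, with no overlap. In NICeCA, Mmp8 had a mean of 51.9 RPKM beside 0.987 RPKM for Ltf and 0.72 RPKM for Camp.

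Surface receptors made up the largest share of the companion calls. Of 12 tested, 9 rose, beside 5.88% of all tested genes. Whether these calls came from neutrophils or from the macrophages and monocytes in the fractions was not tested. Among the 9 were Fpr1, Fpr2, C5ar1, Ltb4r1 and Ptafr, which sense formyl peptides, complement C5a, leukotriene B4 and platelet-activating factor. Fpr1 measured 5.56, 4.82 and 10.6 RPKM in Ctrl and 22, 28.5 and 37.6 RPKM in NICeCA (log2 difference 1.96, SE 0.29, adjusted p = 0.015). The innate receptors Trem1, Clec4d and Clec4e rose by 1.10, 1.57 and 1.79 in log2, and Itgam, the CD11b integrin chain shared with macrophages, by 0.77. Itgb2 and Selplg did not pass (adjusted p = 0.76 and 0.28). Cxcr1, the other receptor of CXCR2 ligands, was under the filter, with its highest value of 3.75 RPKM in NICeCA replicate 3.

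The phagocyte NADPH oxidase, which neutrophils share with macrophages, gave 0 calls among 6 tested genes in the limma fit, with 1 at an unadjusted p under 0.05 and 0 with voom. Cyba and Ncf1, the most abundant, had log2 differences of 0.54 and -0.18 (adjusted p = 0.08 and 0.63). Of 6 other enzymes and secreted proteins, Slpi, Mcemp1 and Alox5ap rose. Slpi, an inhibitor of neutrophil elastase, went from 17.1 ± 8.56 to 97.3 ± 29.1 RPKM (log2 difference 2.53, SE 0.37, adjusted p = 0.015). Alox5ap rose by 0.69 while Alox5, the enzyme it presents substrate to, did not pass (-0.38, adjusted p = 0.22), nor did Hdc and Padi4 (adjusted p = 0.12 and 0.64). Among lineage factors, Cebpe and Cebpd rose by 1.15 and 0.56 in log2 (adjusted p = 0.038 and 0.04), and Cebpb, Spi1 and Cebpa did not pass (adjusted p = 0.33, 0.18 and 0.22).

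**Figure D3:**
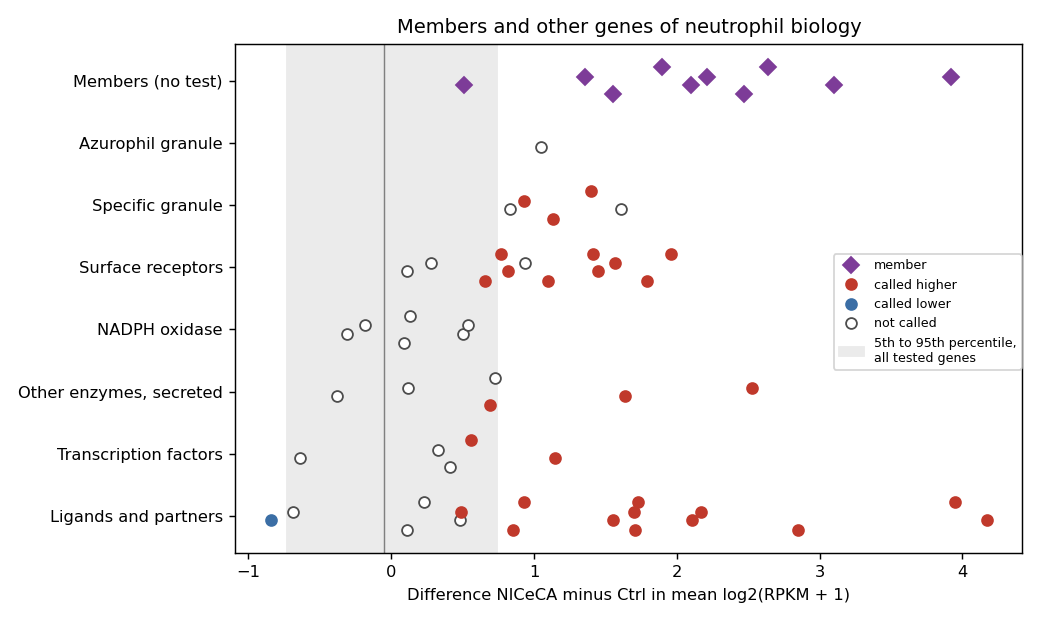
Difference NICeCA minus Ctrl in mean log2(RPKM + 1) for the members (diamonds, shown with no test because they were chosen on this contrast) and for tested genes of the companion and partner lists (circles, red called higher, blue called lower, open not called). The gray band spans the 5th to 95th percentile of all tested genes, -0.73 to 0.74, and the oxidase genes all lie inside it.

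Partner genes are the ligands, co-receptors, inhibitors and targets that act with the members, and 17 of 19 were tested. Of these, 12 rose and 1 fell, where 5.88% of all tested genes rose and 7.68% fell. This list too was drawn up with earlier results of these data known, so its counts are no independent support. The count of 13 calls became 7 without NICeCA replicate 1 and 2 without NICeCA replicate 2 (Csf3 and Ppbp), and lay between 9 and 14 when any other library was left out. Calls over all genes also dropped in these fits, from 725 higher and 946 lower. They were 91 and 14 without NICeCA replicate 1, and 26 and 1 without NICeCA replicate 2. Csf3, the ligand of CSF3R, measured 0.658, 1.03 and 1.17 RPKM in Ctrl and 4.1, 4.63 and 5.36 RPKM in NICeCA (log2 difference 1.55, SE 0.16, adjusted p = 0.0088). With a Ctrl mean of 0.952 RPKM, it passed the filter through its NICeCA values, and it was also called with no filter.

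The ligands of CXCR2 rose as well. Cxcl2 was the most abundant with 273, 252 and 428 RPKM in Ctrl and 1125, 1512 and 1574 RPKM in NICeCA (adjusted p = 0.0092). Cxcl1, Cxcl3, Cxcl5 and Ppbp rose by 1.71, 3.95, 2.11 and 4.17 in log2, with adjusted p from 0.0083 to 0.043.

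On the interleukin-1 side of Il1r2, both ligands and the antagonist rose. Il1b went from 269 ± 109 to 835 ± 108 RPKM (adjusted p = 0.02), and Il1a and Il1rn rose by 2.85 and 1.73 in log2 (adjusted p = 0.012 and 0.028). The signaling receptor Il1r1 had a difference of the opposite sign that did not pass, with 16.4 ± 4.01 RPKM in Ctrl and 9.82 ± 2.84 RPKM in NICeCA (log2 difference -0.69, adjusted p = 0.078). Il1rap, its accessory chain, did not pass (adjusted p = 0.13). In RPKM, the decoy receptor Il1r2 was below Il1r1 in each Ctrl library and above it in each NICeCA library.

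Of the receptors for calprotectin, Tlr4 rose from 19.5 ± 5.35 to 35.1 ± 3.43 RPKM (adjusted p = 0.037) and Bsg, which encodes CD147, from 84 ± 14 to 160 ± 16.5 RPKM (adjusted p = 0.021), while Ager was under the filter. Among the inhibitors of the metalloproteinases, Timp2 fell from 86.6 ± 4.37 to 48 ± 4.98 RPKM (log2 difference -0.84, SE 0.13, adjusted p = 0.016), and Timp1 did not pass (adjusted p = 0.62). Pnpla2, the lipase that G0S2 inhibits, did not pass (adjusted p = 0.71), and its co-activator Abhd5 rose by 0.49 (adjusted p = 0.039). The lipocalin-2 receptor gene Slc22a17 did not exceed 0.647 RPKM in any library and was not tested.

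Related genes near the members were listed by name and position after their values had been seen. Of 12 other S100 genes on chromosome 3, 7 were tested and S100a10 alone rose (log2 difference 0.72, adjusted p = 0.025). S100a4 and S100a6, which many cell types use, had 840 to 1298 and 545 to 817 RPKM and did not pass (adjusted p = 0.4 and 0.37). The log2 differences of S100a8 and S100a9 were 2.64 and 2.21 beside at most 0.82 among these tested neighbors. Since the pair was chosen on this contrast and the neighbors were not, nothing is read from this gap. Beside Mmp8 on chromosome 9, Mmp12, Mmp13 and Mmp27 rose by 3.23, 3.21 and 1.25 in log2 (adjusted p = 0.011, 0.016 and 0.011), and Mmp3 did not pass (adjusted p = 0.89). Mmp12 is known as the macrophage elastase, and Mmp27 averaged 0.19 RPKM in Ctrl and passed the filter through NICeCA. None of the 5 other receptor genes of the interleukin-1 family on chromosome 1 passed, with 1 at an unadjusted p under 0.05 (Il1r1) and 0 with voom. Retnla, a relative of Retnlg made by macrophages, did not pass either, with 7.64 to 37.2 RPKM in Ctrl and 4.98 to 58.3 RPKM in NICeCA (adjusted p = 0.87).

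The genes whose profile over the 6 libraries was most like the mean profile of the members were found by the root mean square distance of their centered log2(RPKM + 1) values. They were Fpr1 (0.218), Niacr1 (0.224), Mgarp (0.245), Fam71f2 (0.247), Arg2 (0.249), Cxcl2 (0.249), Mgp (0.263), Ccl4 (0.265), Nos2 (0.271) and Slpi (0.271). The median distance of all tested genes was 1.19. Since the members were chosen on this contrast, genes like their mean profile had to be higher in NICeCA, and nothing is read from that. Mgarp and Fam71f2, with 0.394 to 1.17 and 0.327 to 1.55 RPKM in Ctrl, passed the filter through their NICeCA values. Among the members the distance ran from 0.270 for Il1r2 to 0.874 for Mmp8. The like genes were picked for the smallest distances of all tested genes and the members were not, so their distances are not compared. The distance also counts the size of the difference, which was largest for Mmp8. Arg2 and Nos2 encode a mitochondrial arginase and the inducible nitric oxide synthase, Ccl4 a CC chemokine and Mgp the matrix Gla protein. Niacr1, the nicotinic acid receptor gene, measured 9.51, 13.5 and 30.4 RPKM in Ctrl and 65.6, 83.7 and 117 RPKM in NICeCA.

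Markers of other cells were counted because the beads could hold them. Over all tested genes, 5.88% were called higher and 7.68% lower. Of the 6 general leukocyte genes, Cd53 alone rose, and the list summed to 834 to 1154 RPKM in Ctrl and 1111 to 1500 RPKM in NICeCA. Ptprc was 27.8 to 76.2 RPKM in Ctrl and 51.7 to 59.1 RPKM in NICeCA (adjusted p = 0.6). Of the 11 macrophage and monocyte genes, Cd68 and Cd14 rose (adjusted p = 0.022 and 0.026), and Lyz2, C1qa and C1qc did not pass (adjusted p = 0.68, 0.26 and 0.25). By mean RPKM, Lyz2 was the most abundant of these and Cd14 came next. The 8 platelet genes summed to 108 to 178 RPKM in Ctrl and 897 to 1132 RPKM in NICeCA, nearly all of it Pf4, which rose by 2.98 in log2 (adjusted p = 0.0069). The defining platelet receptor genes Gp9, Gp1ba, Gp6, Treml1 and Clec1b each averaged under 1 RPKM, and Itga2b and Gp1bb did not pass (adjusted p = 0.42 and 0.5).

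None of the tested mast cell and basophil (5), eosinophil (3), lymphocyte (8) or erythroid (4) markers passed in the limma fit. Of these 20, Ccr3 alone had an unadjusted p under 0.05, and 0 passed with voom. Of 6 dendritic genes Clec9a alone was called, and it fell. Of 12 endothelial genes Vwf alone rose (adjusted p = 0.036). An unadjusted p under 0.05 was found for 4 of them, and the share of all tested genes with such a p was not counted. Fibroblast genes fell in 3 of 6 (Col3a1, Lum and Pdgfra), mural genes rose in 2 of 5 tested (Rgs5 and Tagln), and Krt18 fell among 2 tested epithelial genes. These calls stand beside 5.88% of all tested genes called higher and 7.68% lower. Of the 14 alternatives, Col3a1 was called lower in 6, Lum in 8 and Pdgfra in 7. Rgs5 was called higher in 8 of them and Tagln in 10, and Krt18 was called lower in 5 of 13 fitted. No marker was at 0 in all 6 libraries. The part of any of these cell types in the values of the members was not tested.

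**Figure D4:**
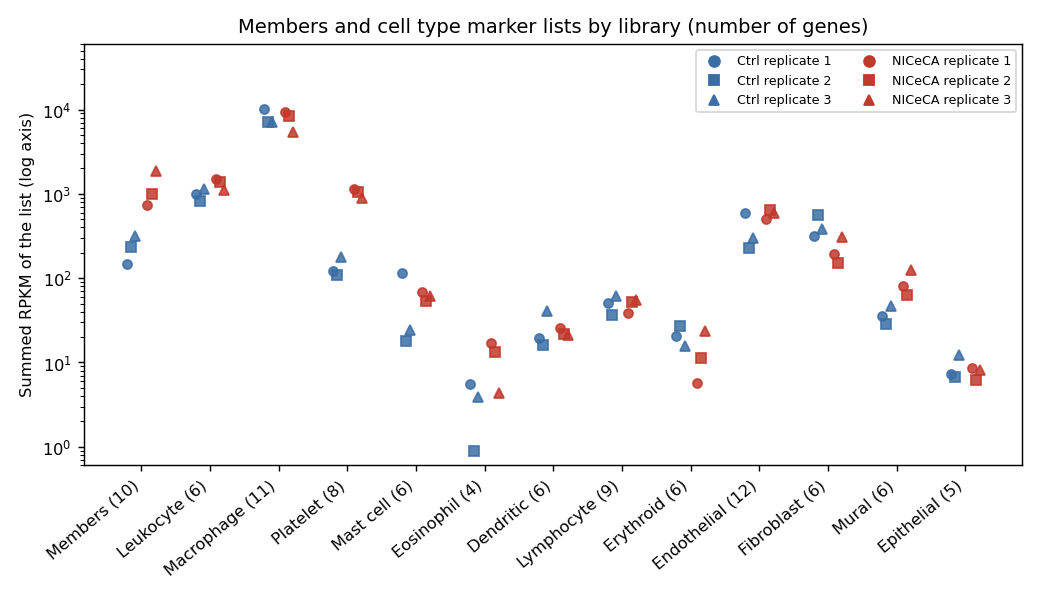
Summed RPKM (log axis) of the 10 members and of each marker list by library, with the number of genes in parentheses, blue for Ctrl and red for NICeCA. The sums of the members and of the platelet and mural lists are higher in all NICeCA libraries, the fibroblast sums are lower in all, and the sums of the other lists overlap.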

How the data were processed

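RNA of CD31 bead fractions was sequenced in 3 Ctrl and 3 NICeCA libraries, and the libraries were matched to groups through the sample titles and their library names. The authors deposited RPKM values for 56826 rows. The submitters' processing notes name TopHat 2 and mm 9, but 99.3% of 21665 rows with a current symbol lie at their GRCm38 place, so positions are given in GRCm38. The counting tool and its use of strand were not stated in any source used here. The 33353 FANTOM3 rows were left out of the tests and kept in the library totals. Whole reads were recovered from the RPKM steps (100.0% of values within 0.05 of a whole number).

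From the deposited RPKM, log2(RPKM + 1) was compared between groups by limma's moderated test with a mean-variance trend (limma 3.58.1 under R 4.3.3, two-sided). Rows with a mean of at least 1 RPKM were tested, and p-values were adjusted by Benjamini-Hochberg over all 12320 of them, with a threshold of 0.05. Fold changes on this scale understate those of low genes. An exact permutation test of 3 against 3 libraries cannot go below p = 0.1. The fit was tested on simulated data.

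The members and the gene lists were chosen with earlier results of these data known. Named were all members, all tested partner genes, in each companion and marker list the 3 most abundant and the called genes as far as a result turned on them, and the 10 genes most like the members; the values of some list genes are not reported here. The related genes, the 4 genes of the Notch check and the promoter windows were picked by name after values had been seen. Replicates are separate mice as far as the labels show. Alternatives were 2 other scalings (trimmed mean and quantile), no filter or a mean of 5 RPKM, a pseudocount of 0.1, no trend, a replicate block, voom on recovered reads, and leaving out each library.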

Additional observations from a re-analysis of the deposited data

How the results depend on the processing

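The median log2 difference of the members lay between 1.86 and 2.40 in all 14 alternatives, and each member kept its direction and moved by less than the SD between libraries in every alternative that could be fitted (Cxcr2 was under the mean of 5 RPKM). The median of all genes moved from -0.05 to at most 0.013 and at least -0.087. The 725 genes called higher and 946 called lower became 446 and 325 with quantile normalization, 260 and 105 with no filter, 962 and 687 with trimmed mean scaling, 683 and 1337 with voom, and 629 and 579 with a mean of at least 5 RPKM. Companion genes called higher, 17 at first, were 9 with quantile normalization and 5 with no filter. With 1 library left out, the calls ran from 26 to 913 higher, from 1 to 832 lower, from 0 to 18 for companion genes and from 2 to 14 for the partner genes, 13 at first. The fewest calls came without NICeCA replicate 2 (26 higher and 1 lower) and without NICeCA replicate 1 (91 and 14), followed by Ctrl replicate 2 (242 and 137), and without Ctrl replicate 1 there were 499 and 536. Of the 30 companion and partner genes called, 2 (Csf3 and Ppbp) were called in every alternative fitted.

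Replicate numbers are shared by the groups, and the study speaks of pairs without saying which mice formed them. Deviations of same-numbered libraries correlated at 0.12, -0.34 and -0.18 across genes, so the numbers were not taken to pair the samples, and not every library correlated best with its own number. With a replicate block, 327 genes were called higher, 209 lower and 11 companion genes higher, while partner calls were 11 and the median of the members stayed at 2.15.

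The filter of a mean of at least 1 RPKM left Mpo, Elane, Prtn3, Ltf, Camp and most platelet receptor genes untested. Of these, Mpo, Prtn3 and Ltf were higher in all NICeCA than in all Ctrl libraries, and Elane and Camp overlapped. Among tested genes, 16.5% were higher in all NICeCA libraries. Mpo rested on 0 to 15 reads in Ctrl and 33 to 76 in NICeCA, and Prtn3 on 6 to 16 in Ctrl and 25 to 58 in NICeCA.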
